A study of Mus musculus with 8 samples.

Results

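Cholesterol synthesis genes were described in nuclei of a Polycomb repressive complex 2 (PRC2) mutant and of wild type (wt) mouse midbrain. The 7 genes, Hmgcs1, Fdft1, Sqle, Lss, Cyp51, Msmo1 and Insig1, were taken by name from the 23481 genes of the count table. They were chosen by their mutant against wt CPM ratios in earlier results of these data, so every mutant against wt value for them is a description. Comparisons of dopamine with other nuclei use the same dopamine counts, so they are descriptions too. All 7 act in cholesterol synthesis or its control, and none imports cholesterol. RNA of single nuclei was sequenced from 10x Chromium 3' v3 libraries, in which each unique molecular identifier (UMI) tags a transcript near its 3' end.

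Both genotypes carried the strain name DatCreEed, which joins a Cre driver of the dopamine transporter gene with Eed, a core PRC2 subunit. The labels do not give the alleles of each genotype. The PRC2 mutant library and the wt library were each made from a pool of 3 mice, 2 female and 1 male, aged 8 months. Nuclei of adult midbrain were isolated and sorted by flow cytometry, and the labelled cell type was midbrain dopaminergic (mDA) neurons. Each library was read on 4 flow cell lanes, which are not separate replicates, so 1 library stands for each genotype and genotype cannot be told apart from pool, sort or library preparation. No test was run, and all intervals are 95% intervals that cover counting error only.

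Nuclei with at least 5 UMIs of Th, Slc6a3, Slc18a2 and Ddc together per 10000 UMIs were called dopamine nuclei and the rest other nuclei. The dopamine class held 2875 of 3968 mutant nuclei (72.5%) and 1320 of 1772 wt nuclei (74.5%), and the other class 1093 mutant and 452 wt nuclei. Median depth was 19023 UMIs in mutant and 24258 UMIs in wt dopamine nuclei, and 14650 UMIs in mutant and 12472 UMIs in wt other nuclei. All 14 mDA markers had UMIs in each class, summing to 2279 counts per 1000000 UMIs of the class (CPM) in mutant and 3645 CPM in wt dopamine nuclei, against 373 CPM in mutant and 382 CPM in wt other nuclei. Dopamine nuclei of the mutant library therefore carried less mDA marker RNA per UMI than those of wt. Th, Slc6a3, Slc18a2 and Ddc are among the 14 markers, so the gap between dopamine and other nuclei is partly fixed by the class rule. Eed was counted at 41.3 CPM in mutant and 21.4 CPM in wt dopamine nuclei, which does not check the label because a 3' tag can lie outside a deleted part. Hox genes, which PRC2 keeps silent in the midbrain, summed to 526 CPM in mutant and 0.0762 CPM (3 UMIs) in wt dopamine nuclei. The libraries shared 4 cell barcodes.

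Cholesterol is built from acetyl units through mevalonate, isoprenoids, squalene and lanosterol. When sterol in the endoplasmic reticulum is low, the transcription factor precursor SREBP2, encoded by Srebf2, is carried by Scap to the Golgi, cleaved and sent to the nucleus, where it activates most genes of the pathway. Insig proteins hold the Scap complex back when sterol is plentiful. Adult neurons are known to rely partly on cholesterol supplied by astrocytes, and much of the brain's cholesterol lies in myelin made by oligodendrocytes.

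Promoter windows are shown because SREBP proteins act on these genes through sterol regulatory elements, often beside CCAAT and GC boxes. RefSeq windows on build GRCm38.p6, from 250 bases before to 50 bases after the RefSeq start of the gene, were matched for 5 of the 7 genes. Capitals mark TCACNCCA, a core of the sterol regulatory element, CCAAT and GGGCGG, each sought on both strands, so that CCAAT also reads ATTGG and GGGCGG also reads CCGCCC. In the windows shown, no match of one motif overlapped a match of another. Hmgcs1 is at chr13:119690101-119690400 on the plus strand, Msmo1 at chr8:64733529-64733828 on the minus strand, Insig1 at chr5:28071162-28071461 on the plus strand and Srebf2 at chr15:82147019-82147318 on the plus strand.
Hmgcs1: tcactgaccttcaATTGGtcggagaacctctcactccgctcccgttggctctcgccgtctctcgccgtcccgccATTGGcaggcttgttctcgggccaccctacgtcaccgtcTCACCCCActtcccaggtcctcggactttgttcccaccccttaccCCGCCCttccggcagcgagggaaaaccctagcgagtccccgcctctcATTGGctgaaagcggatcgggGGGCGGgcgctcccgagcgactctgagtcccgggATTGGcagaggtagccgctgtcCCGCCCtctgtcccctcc
Msmo1: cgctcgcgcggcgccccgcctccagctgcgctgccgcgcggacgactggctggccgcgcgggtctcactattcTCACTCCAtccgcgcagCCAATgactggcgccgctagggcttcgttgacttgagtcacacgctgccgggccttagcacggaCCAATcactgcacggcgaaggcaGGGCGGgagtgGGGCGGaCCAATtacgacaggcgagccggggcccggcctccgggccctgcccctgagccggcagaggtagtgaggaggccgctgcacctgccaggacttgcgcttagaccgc
Insig1: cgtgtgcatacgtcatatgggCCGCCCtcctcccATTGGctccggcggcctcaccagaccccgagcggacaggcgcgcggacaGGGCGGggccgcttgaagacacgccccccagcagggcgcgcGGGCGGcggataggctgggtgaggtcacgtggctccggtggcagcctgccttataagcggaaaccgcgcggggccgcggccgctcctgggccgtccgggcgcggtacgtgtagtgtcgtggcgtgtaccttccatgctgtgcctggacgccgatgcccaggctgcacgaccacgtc
Srebf2: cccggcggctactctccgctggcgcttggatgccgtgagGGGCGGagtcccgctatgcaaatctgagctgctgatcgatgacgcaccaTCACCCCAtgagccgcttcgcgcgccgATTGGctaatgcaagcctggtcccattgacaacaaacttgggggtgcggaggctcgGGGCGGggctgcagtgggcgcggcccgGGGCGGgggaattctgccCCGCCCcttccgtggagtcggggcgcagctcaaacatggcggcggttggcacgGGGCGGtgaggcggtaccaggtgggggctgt
TCACNCCA was present in the windows of Hmgcs1 (base -137 to base -130), Msmo1 (base -177 to base -170) and Srebf2 (base -162 to base -155). Bases were counted from the RefSeq start. The gene spans given below come from the GENCODE annotation, whose starts differ from these. By its span, the Msmo1 match lies inside the gene. Among all 32851 windows, 4.36% held TCACNCCA. CCAAT and GGGCGG were both present in all 5 windows, including those of Lss and Cyp51, against 12.8% of all windows. Hmgcs1 held 4 CCAAT and 3 GGGCGG matches, Msmo1 held 3 and 2, and Insig1 held 1 and 3. These matches describe letters in the windows and were not tied to binding.

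In dopamine nuclei the 7 genes were lower in the mutant library, and together they were counted at 181 CPM (178 to 185) in mutant and 317 CPM (311 to 323) in wt nuclei, a ratio of 0.572 (0.558 to 0.587). A gene was called lower at 1.5-fold with a pseudocount of 5 CPM and at least 50 UMIs. By this rule 6 of the 7 were called lower, where 1.46% of 16324 genes tested were called lower, and none higher, where 1.99% were. The choice of genes fixes that count, and nothing is read from it. Their median log2 ratio with the pseudocount was -0.73, against 0.02 over all genes tested.

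Hmgcs1, which makes HMG-CoA for the mevalonate pathway, spans 119690379 to 119708260 on chromosome 13 (mm10, plus strand). It was counted at 36.2 CPM in mutant and 63.2 CPM in wt dopamine nuclei, from 2486 UMIs in mutant and 2488 UMIs in wt, a ratio of 0.572 (0.541 to 0.605). The mutant class held 68742978 UMIs in all and the wt class 39383984. Fdft1 (chromosome 14, 63145150 to 63179578, minus strand), the squalene synthase that commits isoprenoids to sterols, was counted at 38.5 CPM in mutant and 71.3 CPM in wt nuclei, a ratio of 0.539 (0.511 to 0.569). Sqle (chromosome 15, 59315077 to 59331192, plus strand), the squalene epoxidase and a control point of the pathway, was counted at 13.3 CPM in mutant and 26.1 CPM in wt nuclei. Its ratio of 0.509 (0.466 to 0.557) was the lowest of the 7.

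Lss (chromosome 10, 76531588 to 76557138, plus strand) closes the rings to give lanosterol. It was counted at 19.4 CPM in mutant and 33.9 CPM in wt nuclei, a ratio of 0.574 (0.531 to 0.619). Cyp51 (chromosome 5, 4081145 to 4104746, minus strand) is the lanosterol demethylase, and it was counted at 31.3 CPM in mutant and 45.9 CPM in wt nuclei. Its ratio of 0.683 (0.641 to 0.727) was the highest of the 7 and was within 1.5-fold both without and with the pseudocount. Msmo1 (chromosome 8, 64718139 to 64733792, minus strand), a methylsterol oxidase of the following steps, was counted at 24.7 CPM in mutant and 47.0 CPM in wt nuclei, a ratio of 0.527 (0.493 to 0.563). Insig1 (chromosome 5, 28071363 to 28078662, plus strand), the sterol-dependent brake on SREBP processing that is itself an SREBP target, was counted at 17.9 CPM in mutant and 29.6 CPM in wt nuclei, a ratio of 0.606 (0.559 to 0.657). In the annotation, Hmgcs1 and Lss overlap the genes Gm48342 and 4930483K19Rik, and Fdft1 and Cyp51 overlap the ends of Ctsb and Akap9. How UMIs in shared stretches were assigned was not stated, so the levels of these 4 genes are uncertain to that extent. Sqle, Msmo1 and Insig1 overlap no annotated gene.

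**Figure D1:**
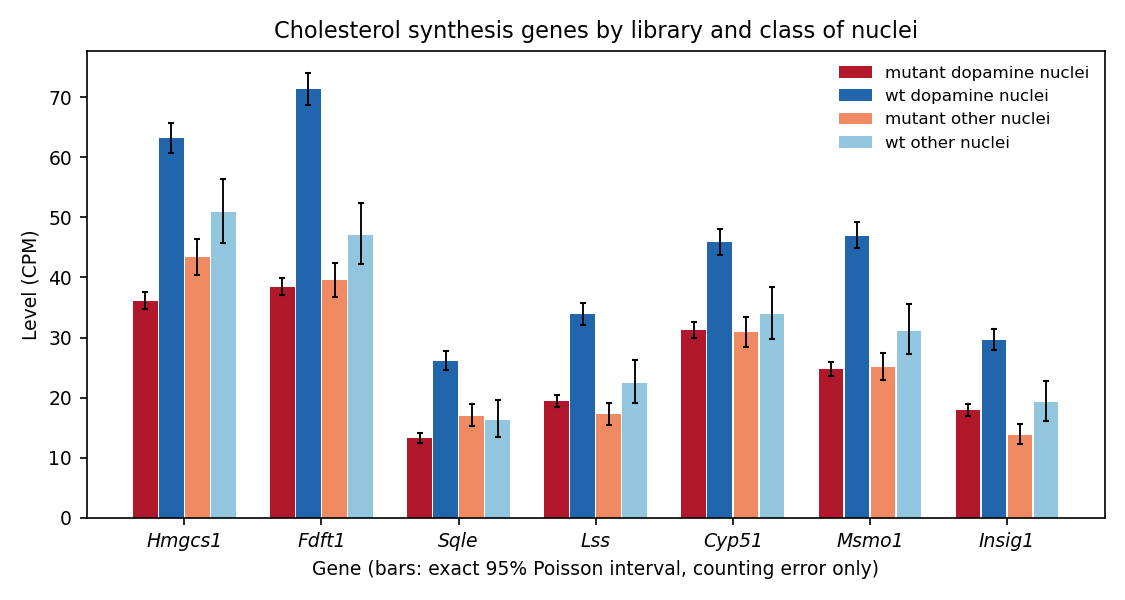
Level of each gene in CPM in mutant dopamine, wt dopamine, mutant other and wt other nuclei, with exact 95% Poisson intervals as bars. For each gene the wt dopamine bar is the highest of its 4 bars, and mutant dopamine nuclei lie near the other nuclei. The genes were chosen by ratios that use the dopamine counts.

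In all other nuclei the gap between libraries was smaller than in dopamine nuclei. The 7 genes together were counted at 187 CPM (181 to 193) in mutant and 221.2 CPM (210 to 232) in wt other nuclei, a ratio of 0.845 (0.796 to 0.897). None of the 7 was called lower, where 1.94% of 13491 genes were, and none was called higher, where 1% were. Their median log2 ratio was -0.23, against -0.01 over all genes tested. Insig1 had the lowest ratio, 0.717 (0.582 to 0.887), and Sqle the highest, 1.04 (0.840 to 1.30), with 17.0 CPM in mutant and 16.3 CPM in wt nuclei. For the sum, the ratio in dopamine nuclei divided by the ratio in other nuclei was 0.677 (0.635 to 0.722). It was lowest for Sqle at 0.490 (0.389 to 0.615) and highest for Insig1 at 0.845 (0.678 to 1.05), whose interval spans 1. Without nuclei holding 5 or more glial or vascular marker UMIs per 10000, the ratio in dopamine nuclei was 0.484 (0.452 to 0.519). In the 71 mutant and 35 wt other nuclei left it was 0.573 (0.452 to 0.729), and these intervals overlap. Precursor markers alone, mostly Lhfpl3, had medians of 9.19 in mutant and 7.82 in wt other nuclei per 10000. The limit of 5 therefore does not single out glia. In other nuclei with Y-linked UMIs and no Xist, from the 1 male of each pool, the ratio was 1.02 (0.807 to 1.29), and Hmgcs1, with 36 mutant and 20 wt UMIs, was called higher, where 5.47% of 5135 genes were. Of the 7, 5 had too few UMIs there to be called. The other class of the mutant library was not free of Hox RNA, which summed to 93.5 CPM in mutant and 1.12 CPM in wt other nuclei and was detected in 30.1% of mutant and 0.664% of wt other nuclei. Its part in these ratios was not tested.

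Within the mutant library the sum in dopamine nuclei was 0.970 times (0.935 to 1.01) that in other nuclei, and single genes ran from 0.782 for Sqle to 1.30 for Insig1. The direction turned with the limit of the dopamine rule, at 0.916 (0.879 to 0.953) with a limit of 3 and 1.09 (1.05 to 1.12) with a limit of 10. Within the wt library the sum was 1.43 times (1.36 to 1.51) that in other nuclei, and single genes ran from 1.24 for Hmgcs1 to 1.60 for Sqle. The wt dopamine counts also enter the ratios by which the genes were chosen. The value of 1.43 is therefore a description and not separate evidence. None of the 7 was called higher or lower in dopamine nuclei in either library. Of all genes, 2.93% were called higher and 4.93% lower in the mutant library, and 3.4% higher and 8.2% lower in the wt library. With a pseudocount of 1 CPM, 3 of the 7, Fdft1, Sqle and Insig1, were called higher in wt dopamine nuclei, where 6.1% of all genes were.

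Some other nuclei carried markers of other cell classes. Oligodendrocyte markers summed to 490 CPM in mutant and 1016 CPM in wt other nuclei, and astrocyte markers to 184 CPM in mutant and 432 CPM in wt other nuclei. All 12 oligodendrocyte and all 11 astrocyte markers had UMIs in each class. In other nuclei with at least 50 oligodendrocyte marker UMIs per 10000, the 7 genes summed to 269 CPM (219 to 328) in 63 mutant nuclei and 253 CPM (204 to 311) in 54 wt nuclei. In other nuclei with at least 2 UMIs per 10000 of the GABA markers Gad1, Gad2 and Slc32a1, they summed to 170 CPM (161 to 180) in 394 mutant nuclei and 168 CPM (152 to 186) in 115 wt nuclei, and in those with at least 2 of the glutamate markers to 233 CPM (219 to 248) in 204 mutant nuclei and 199 CPM (171 to 230) in 48 wt nuclei. The ratios of mutant to wt were 1.06 (0.793 to 1.43) with oligodendrocyte, 1.01 (0.902 to 1.14) with GABA and 1.17 (1.00 to 1.38) with glutamate markers. In the larger subsets the mutant library was lower. Other nuclei with at least 50 neuron marker UMIs per 10000 had 185 CPM in 861 mutant and 215 CPM in 306 wt nuclei, a ratio of 0.859 (0.806 to 0.916). Those with under 5 oligodendrocyte marker UMIs per 10000 had 185 CPM in 944 mutant and 223 CPM in 354 wt nuclei, a ratio of 0.828 (0.776 to 0.883). Among dopamine nuclei, oligodendrocyte markers summed to 264 CPM in mutant and 307 CPM in wt, and GABA markers to 179 CPM in mutant and 34.0 CPM in wt. Astrocyte markers summed to 64.1 CPM in mutant and 113 CPM in wt, and microglia markers to 16.4 CPM in mutant and 17.2 CPM in wt dopamine nuclei. Precursor markers summed to 820 CPM in mutant and 712 CPM in wt, mostly Lhfpl3, and endothelial and pericyte markers to 168 CPM in mutant and 143 CPM in wt, mostly Ebf1, and no marker of these lists was at 0. In dopamine nuclei with under 5 oligodendrocyte marker UMIs per 10000, the 7 genes summed to 179 CPM in mutant and 319 CPM in wt, a ratio of 0.561 (0.546 to 0.576).

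The difference was present at each quartile of the nuclei, though its size differed with dopamine tags and depth, as given below. Per 10000 UMIs, the summed 7 genes had quartiles of 0.835, 1.54 and 2.45 UMIs in mutant dopamine nuclei and 1.52, 2.64 and 4.11 UMIs in wt dopamine nuclei. The 95th percentile was 4.56 UMIs in mutant and 6.90 UMIs in wt nuclei. With every nucleus thinned to 2000 UMIs, 29.5% (27.8 to 31.2) of 2848 mutant and 43.7% (41.0 to 46.5) of 1285 wt dopamine nuclei had a UMI of any of the 7, and 27 mutant and 35 wt nuclei were too shallow to be thinned. For single genes the thinned share ran from 2.81% in mutant and 5.84% in wt nuclei for Sqle to 7.58% in mutant and 14.4% in wt nuclei for Fdft1. Unthinned, the shares with any of the 7 were 87.9% in mutant and 92.3% in wt nuclei. In thinned other nuclei the shares were 29.1% (26.3 to 32.0) in mutant and 31.9% (27.4 to 36.6) in wt. No cell class known to lack these genes was available to set a background from free RNA.

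The summed level was higher in dopamine nuclei with more dopamine tags in both libraries, and from 5 up to 40 tags per 10000 UMIs the ratio of mutant to wt was lower in each higher band. Mutant dopamine nuclei had a median of 13.7 and wt dopamine nuclei of 24.3 UMIs of the 4 dopamine genes per 10000. In nuclei with 5 to 10 such UMIs the sum was 161 CPM (156 to 167) in 775 mutant and 200 CPM (183 to 218) in 143 wt nuclei, a ratio of 0.807 (0.736 to 0.886). From 10 to 20 it was 185 CPM (181 to 189) in 1589 mutant and 265 CPM (254 to 275) in 317 wt nuclei, a ratio of 0.699 (0.667 to 0.731). From 20 to 40 it was 211 CPM (201 to 221.4) in 504 mutant and 343 CPM (336 to 350) in 802 wt nuclei, a ratio of 0.616 (0.585 to 0.648). At 40 or more it was 271 CPM in 7 mutant and 412 CPM in 58 wt nuclei, a ratio of 0.656 (0.356 to 1.11), whose interval spans 1. The mutant library was lower within each of the 3 bands up to 40, and weighting all 4 bands as in wt gave 203 CPM in mutant and 317 CPM in wt, a ratio of 0.642. In the 5 to 10 band Sqle had a ratio of 0.465 (0.352 to 0.621) while Msmo1, Lss, Cyp51 and Insig1 had intervals that spanned 1. Just outside the limit, nuclei with 4 to 5 dopamine UMIs had 156 CPM in mutant and 176 CPM in wt, a ratio of 0.889 (0.724 to 1.10). Just inside it, those with 5 to 6 had 174 CPM in mutant and 192 CPM in wt, a ratio of 0.910 (0.745 to 1.12). Both intervals span 1.

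**Figure D2:**
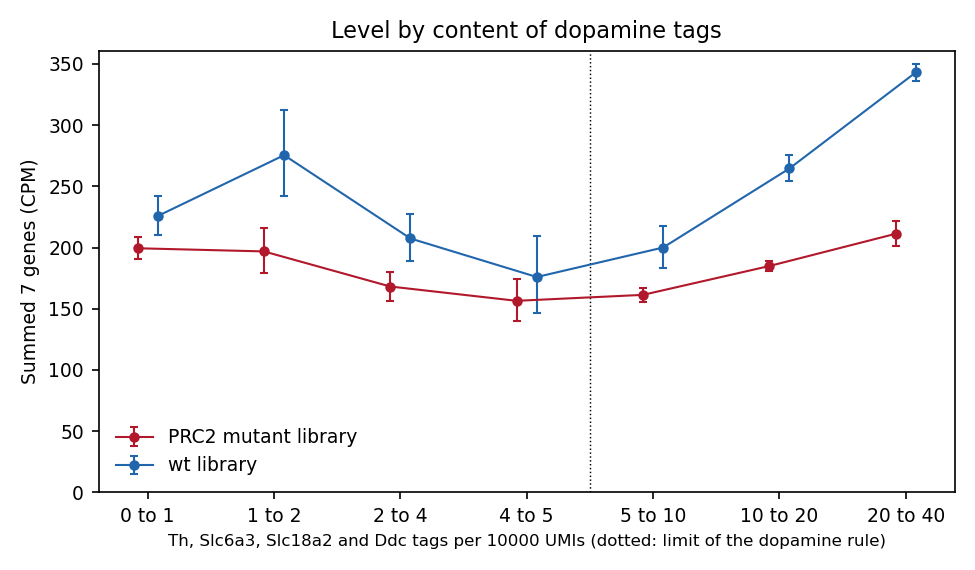
Summed 7 genes in CPM by UMIs of the 4 dopamine genes per 10000, for the mutant and the wt library, with exact 95% Poisson intervals. From 20 to 40 the libraries lie at 211 CPM in mutant and 343 CPM in wt nuclei, and the band of 40 or more, with 7 mutant and 58 wt nuclei, is not plotted.

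The mutant library had about the same level at every depth, while in the wt library deeper nuclei had higher levels. In the 90 mutant and 60 wt dopamine nuclei under 5000 UMIs the ratio was 0.859 (0.531 to 1.41), whose interval spans 1. In dopamine nuclei of 5000 to 10000 UMIs the sum was 177 CPM in mutant and 231 CPM in wt, a ratio of 0.765 (0.649 to 0.905). In nuclei of at least 40000 UMIs it was 180 CPM in mutant and 327 CPM in wt, a ratio of 0.551 (0.530 to 0.573). Nuclei with Xist and no Y-linked UMI had 186 CPM in 1954 mutant and 327 CPM in 724 wt dopamine nuclei, a ratio of 0.570 (0.551 to 0.589). Nuclei with Y-linked UMIs and no Xist, from the 1 male of each pool, had 172 CPM in 280 mutant and 257 CPM in 160 wt dopamine nuclei, a ratio of 0.669 (0.598 to 0.749). Among these male nuclei 1 of the 7 genes, Sqle, was called lower, where 4.9% of 9123 genes were, and the ratio of each gene was below 1, with an interval that spans 1 for Msmo1 (0.792, 0.571 to 1.10). Their median depth was 9566 UMIs in mutant and 14756 UMIs in wt, and 762 mutant and 478 wt nuclei of the whole table had both tags.

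The summed level of the 7 genes was about the same at each Hox content in mutant dopamine nuclei, while single genes differed in direction. In 584 mutant dopamine nuclei with no Hox UMI the sum was 181 CPM (172 to 191), and in 205 nuclei with over 12 Hox UMIs per 10000 it was 183 CPM (170 to 196). The bands between lay from 174 to 184 CPM. Hox-free mutant nuclei had a median depth of 11136 UMIs, against 19023 UMIs in all mutant dopamine nuclei. Against all wt dopamine nuclei their ratio was 0.572 (0.541 to 0.605), and single genes ran from 0.493 for Insig1 to 0.657 for Cyp51. Insig1 was at 14.6 CPM in Hox-free nuclei and 18.5 CPM in mutant nuclei with over 6 Hox UMIs per 10000. Msmo1, Lss and Cyp51 were also higher in the latter. Fdft1 was at 42.4 CPM in Hox-free nuclei and 37.2 CPM in those with over 6, and Hmgcs1 and Sqle were also lower there. A link of any gene with Hox content was not tested.

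**Figure D3:**
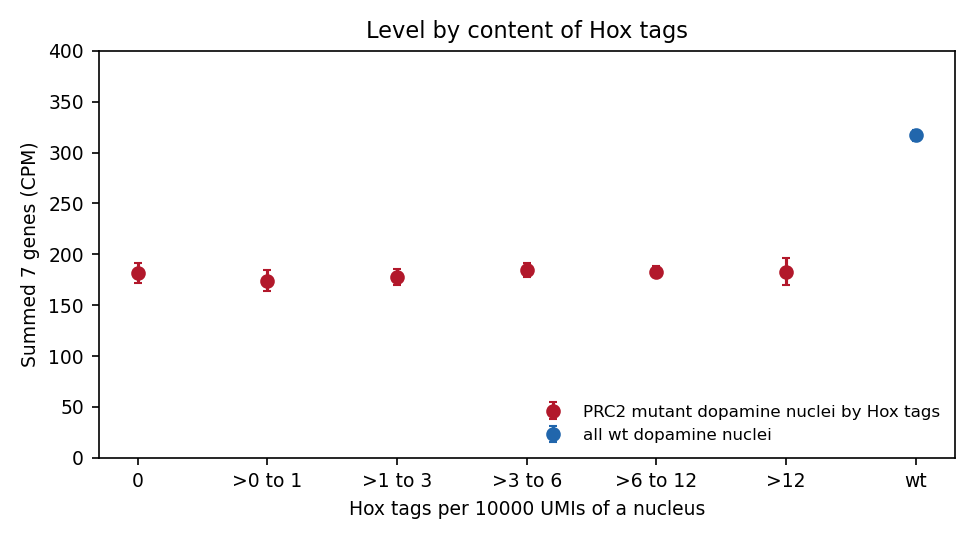
Summed 7 genes in CPM in mutant dopamine nuclei by Hox UMIs per 10000, left to right from none to over 12, and in all wt dopamine nuclei at the right, with exact 95% Poisson intervals. All 6 mutant points lie between 174 and 184 CPM, below the wt point at 317 CPM.

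Dopamine nuclei were also divided by Ndnf, which encodes a secreted factor. Ndnf was detected in 682 mutant and 509 wt dopamine nuclei, whose median depths of 27877 UMIs in mutant and 34555 UMIs in wt were above the 16751 UMIs in mutant and 20156 UMIs in wt of nuclei without it. With Ndnf detected the sum was 186 CPM in mutant and 338.5 CPM in wt, a ratio of 0.550 (0.529 to 0.571). Without Ndnf detected it was 179 CPM in mutant and 294 CPM in wt, a ratio of 0.609 (0.588 to 0.630). Within the mutant library the sum with Ndnf was 1.04 times (1.00 to 1.08) that without, and Msmo1 alone of the 7 had an interval off 1, at 1.17 (1.06 to 1.30). Within the wt library it was 1.15 times (1.11 to 1.19), from 1.01 for Hmgcs1 to 1.32 for Lss and for Msmo1. None of the 7 was called higher or lower with Ndnf in either library. Of all genes, 0.578% were called higher and 1.54% lower in the mutant library, and 1.34% higher and 2.34% lower in wt.

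Other genes of the pathway were taken from lists by role, which were also drawn up with earlier results known. In the mevalonate branch, Idi1, an isoprenoid isomerase, was called lower in dopamine nuclei. It was counted at 8.58 CPM in mutant and 15.8 CPM in wt nuclei, a ratio of 0.542 (0.483 to 0.607). Of the 9 later sterol steps, 2 were called lower and none higher, with a median log2 ratio of -0.23. Of all genes, 1.46% were called lower and 1.99% higher there, and their median was 0.02. Nsdhl, a sterol dehydrogenase, was counted at 11.1 CPM in mutant and 20.7 CPM in wt nuclei, a ratio of 0.536 (0.485 to 0.592). Hsd17b7, a reductase of the same demethylation complex, was counted at 7.29 CPM in mutant and 13.8 CPM in wt nuclei, a ratio of 0.528 (0.466 to 0.597). In other nuclei the ratios were 0.968 (0.723 to 1.31) for Idi1, 0.601 (0.490 to 0.740) for Nsdhl and 0.968 (0.709 to 1.34) for Hsd17b7. All were within 1.5-fold with the pseudocount, but Nsdhl was lower in both classes. Its ratio in dopamine nuclei divided by that in other nuclei was 0.891 (0.712 to 1.12), an interval that spans 1.

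None of the 10 sterol sensing genes was called in either direction, and their median was -0.02, against 0.02 over all genes. Srebf2 was counted at 74.9 CPM in mutant and 97.6 CPM in wt dopamine nuclei, a ratio of 0.767 (0.736 to 0.800). Srebf1, encoding the SREBP best known for fatty acid synthesis, had 5.83 CPM in mutant and 7.19 CPM in wt nuclei, a ratio of 0.812 (0.695 to 0.949). Insig2, which encodes the other Insig protein, had 34.7 CPM in mutant and 29.7 CPM in wt nuclei, a ratio of 1.17 (1.09 to 1.25).

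Efflux and turnover genes had 12 measured in dopamine nuclei, with none called and a median of 0.08, against 0.02 over all genes. In other nuclei 2 of the 12 were called lower, the efflux pump Abca1 and the sterol hydroxylase Cyp27a1, with ratios of 0.610 (0.525 to 0.709) and 0.481 (0.355 to 0.654), where 1.94% of all genes were called lower. Oligodendrocyte markers at 490 CPM in mutant and 1016 CPM in wt and astrocyte markers at 184 CPM in mutant and 432 CPM in wt other nuclei were lower beside them, and their part was not tested. Of 14 fatty acid synthesis genes, 1 was called lower and none higher in dopamine nuclei, with a median of -0.13, beside the same shares and median of all genes in dopamine nuclei. It was the desaturase Fads2, at 7.84 CPM in mutant and 15.6 CPM in wt dopamine nuclei, a ratio of 0.503 (0.447 to 0.566), and at 10.8 CPM in mutant and 20.5 CPM in wt other nuclei, a ratio of 0.528 (0.426 to 0.656). Its ratio was close to the same in both classes.

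**Figure D4:**
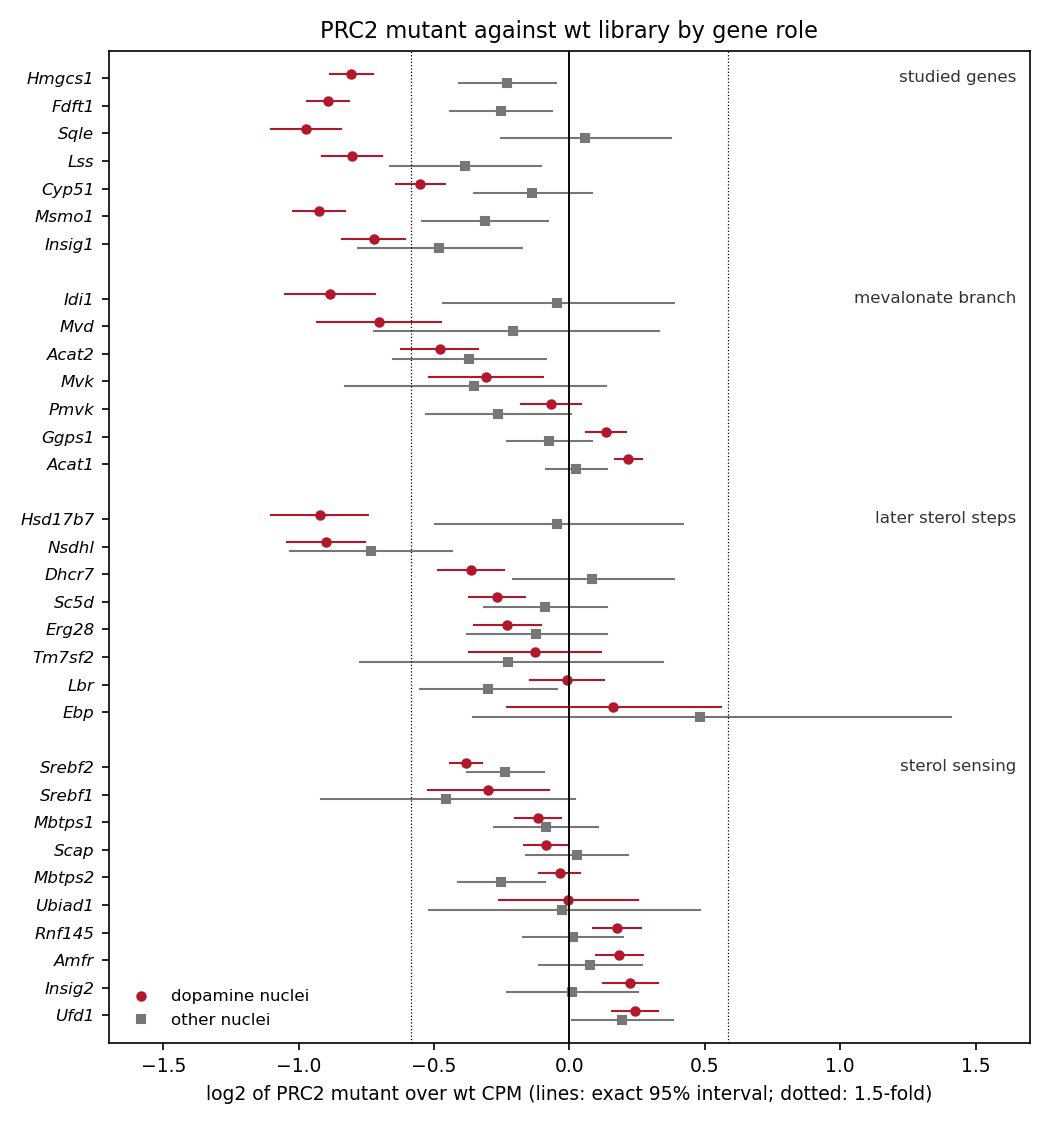
Log2 of the mutant over wt CPM in dopamine nuclei (circles) and other nuclei (squares) by gene role, with exact 95% intervals and dotted lines at 1.5-fold. The 7 genes, Idi1, Nsdhl and Hsd17b7 stand at the left in dopamine nuclei, as does Mvd (ratio 0.614), which was within 1.5-fold with the pseudocount, with Srebf2 nearer 0 and Insig2 to the right of it.

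Correlations among the 7 genes across nuclei were low. Over 21 pairs, the median Pearson correlation of log1p UMIs per 10000, with the lowest and highest pair in brackets, was 0.069 (0.022 to 0.127) in 2875 mutant dopamine nuclei and 0.175 (0.107 to 0.235) in 1320 wt dopamine nuclei. Removing the linear part explained by log depth gave 0.061 in mutant and 0.147 in wt nuclei, and thinning to 10000 UMIs gave 0.049 in 2354 mutant and 0.096 in 1157 wt nuclei. All 21 pairs were above 0 in both libraries before thinning. In other nuclei the median was 0.107 in mutant and 0.098 in wt. The points share a library and depth, and the counts are sparse, so no p is given. The highest pair was Hmgcs1 with Msmo1 in mutant and Msmo1 with Insig1 in wt dopamine nuclei.

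**Figure D5:**
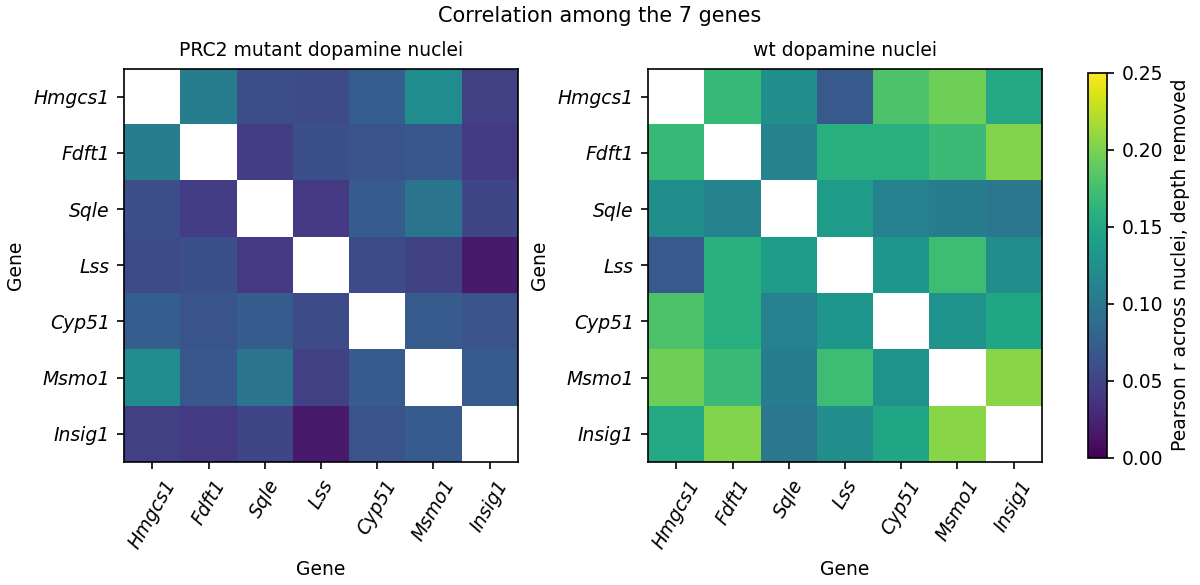
Pearson correlation of the 7 genes across nuclei with the linear part of log depth removed, in mutant dopamine nuclei (left) and wt dopamine nuclei (right). The medians over 21 pairs are 0.061 in mutant and 0.147 in wt, and the diagonals are blank.

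Likeness was the correlation of a gene with the sum of the 7 genes, with the linear part of log depth removed, among 10897 genes with at least 0.1 UMI per nucleus in both libraries. The 99th percentile of all genes was 0.063 in mutant and 0.128 in wt dopamine nuclei. Idi1 and Cdh18 were among the genes in the top 10 of both libraries. Idi1 had 0.141 (rank 4) in mutant and 0.205 (rank 9) in wt, and Cdh18, a cadherin, 0.113 (rank 6) in mutant and 0.212 (rank 6) in wt. Srebf2 had 0.185 (rank 1) in mutant and 0.174 (rank 26) in wt. Slc6a3, one of the 4 dopamine genes of the class rule, had 0.056 (rank 211) in mutant and 0.230 (rank 4) in wt. Others in the top 10 were Stard4, Pappa, Chn2 and Dhcr7 in mutant nuclei, and Tll1, Erc2, Snap25, 1700042O10Rik and Syt17 in wt nuclei.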

How the data were processed

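The authors deposited unnormalised UMI counts as a single table of 23481 genes by nucleus, holding 88201326 UMIs in the mutant and 46540890 in the wt library. Cell Ranger 3.1.0 and mm10 stand without a role in the submitters' processing notes, and filters before deposit were not stated. Genotype was read from the start of each column name (KO as PRC2 mutant, WT as wt). The 7 genes, the lists and the limits were chosen with earlier results of these data known. For each class, counts were added across nuclei and divided by the class total to give CPM. Ratios carry no pseudocount. Their exact 95% intervals split the counts binomially, and CPM intervals are Poisson. Where a ratio in dopamine nuclei was divided by that in other nuclei, the interval is a normal approximation on the log scale. Genes named are the 7, list genes past 1.5-fold in dopamine nuclei with 5 CPM added, a few named whatever their values (Srebf2, Srebf1, Insig2, Idi1), and the 10 of highest likeness. Some genes that this rule names are not reported here, nor are the counts of the mevalonate and uptake lists. Abca1 and Cyp27a1 were named after their values were seen. No doublet caller was run. Python 3.11.15, numpy 2.4.6, scipy 1.17.1, pandas 2.3.3 and matplotlib 3.10.9 were used. The calls were tried on simulated counts that held counting error only. Such counts cannot show how differences between mice, pools or libraries affect the calls.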

Additional observations from a re-analysis of the deposited data

Results flagged for a closer look

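Sqle was lower in the mutant library in dopamine nuclei and about equal between libraries in other nuclei. Its ratio of mutant to wt was 0.509 (0.466 to 0.557) in dopamine nuclei, with 13.3 CPM in mutant and 26.1 CPM in wt, and 1.04 (0.840 to 1.30) in other nuclei, with 17.0 CPM in mutant and 16.3 CPM in wt. The interval in other nuclei spans 1. With 1 library per genotype this difference was not tested.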

How the results depend on the processing

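The sum of the 7 genes stayed below 1 in mutant over wt dopamine nuclei under all 22 alternatives, from 0.484 to 0.669 (0.572 as reported). Of these alternatives, 15 did not leave out a gene. The genes were chosen by their mutant against wt ratios, so staying below 1 was largely fixed by that choice. The ratio was 0.605 with nuclei weighted equally, 0.669 in male nuclei and 0.642 over weighted dopamine bands. Without nuclei holding 5 or more glial or vascular marker UMIs per 10000 (which removed most nuclei) it was 0.484, and 0.554 with a limit of 20. Precursor markers, mostly Lhfpl3, had medians of 7.41 in mutant and 6.03 in wt dopamine nuclei per 10000. The glial limit of 5 therefore does not select by glial content alone. Leaving out 1 gene at a time gave from 0.554 to 0.582. The limit of 20, the bands, the Hox-free nuclei and the depth-removed correlation were chosen after seeing the data. In other nuclei the ratio was 0.573 under the glial limit of 5, where its interval overlaps that of dopamine nuclei, and turned to 1.02 (0.807 to 1.29) in male nuclei. The cause was not tested.

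Dopamine over other nuclei in the mutant library was 0.916 (0.879 to 0.953) at a dopamine limit of 3 and turned to 1.09 (1.05 to 1.12) at 10, and was 1.01 thinned and 0.935 in male nuclei, and ran from 0.944 to 1.01 with 1 gene left out. In wt it was 1.28 at a limit of 3, 1.19 under the glial limit and 1.53 with median scaling. Ndnf detected over not in mutant nuclei was 1.15 under the glial limit, 1.20 thinned and turned to 0.956 in male nuclei. In wt it was 1.11 at a limit of 10, 1.23 weighted equally, 1.08 under the glial limit, 1.35 thinned, 1.37 in male nuclei and 1.24 at 10000 to 40000 UMIs. In male nuclei, 1 of the 7 was called lower in dopamine nuclei (4.9% of all genes) and 1, Hmgcs1, higher in other nuclei (5.47% of all genes), where 5 of the 7 had too few UMIs. Median correlation was 0.020 in mutant nuclei under the glial limit and 0.096 in thinned wt nuclei.

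No paired analysis was possible because lanes were not kept apart and each genotype has 1 library. Depth limits single genes in other nuclei, where 1 UMI equals 0.0514 CPM in mutant and 0.140 CPM in wt. Intervals leave out differences between mice, pools and libraries, and those of CPM and of ratios also leave out differences between nuclei. With dopamine nuclei thinned to 2000 UMIs, the variance of the summed 7 genes over its mean was 1.11 in mutant and 1.20 in wt. Counting error alone gives about 1. The intervals rest on unthinned counts, with a mean of 4.34 UMIs of the 7 genes per nucleus in mutant and 9.46 in wt. The thinned means were 0.366 in mutant and 0.641 in wt. Such an excess grows with the mean, so these intervals are too narrow by more than the thinned values show.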
